A study of Homo sapiens with 132 samples.

Results

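The genes followed were the receptor tyrosine kinases MET, MST1R (the receptor RON), AXL, MERTK, TYRO3 and FGFR1 to FGFR4, together with HGF, the ligand of MET. These 10 genes were picked by name from the 65217 Ensembl gene identifiers of each count file, and their levels were followed in 4 gastric cancer cell lines, NCI-N87, MKN7, MKN1 and Hs746T. mRNA was sequenced from biological triplicates of 44 conditions. Each line had untreated cells and cells given afatinib (0.5 μM), trastuzumab (5 μg/ml) or trastuzumab + afatinib, for 4 h or 24 h. For MKN1 and Hs746T there were also cells given EGF (5 ng/ml), cetuximab (1 μg/ml) or EGF + cetuximab for the same times. All cells grew in medium with 10% FCS, NCI-N87, MKN1 and MKN7 cells in RPMI and Hs746T cells in DMEM, so that medium and Hs746T cannot be told apart. Cetuximab is an antibody against EGFR, trastuzumab an antibody against HER2 (ERBB2), and afatinib an irreversible inhibitor of the HER family kinases. Afatinib was compared with untreated cells, not with cells given a solvent.

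These receptors pass growth signals into the RAS-ERK and PI3K-AKT cascades that EGFR and HER2 also use. MET is activated by HGF and MST1R by the related protein MSP (gene MST1). AXL, MERTK and TYRO3, the TAM receptors, bind GAS6 and PROS1, and the FGF receptors bind FGF proteins together with heparan sulphate or klotho co-receptors. In gastric cancer, MET and FGFR2 are known for gene amplification, and MET, AXL and FGF receptors are known as receptors that can keep such signalling on when HER family receptors are inhibited. The comparisons ask whether the mRNA of these receptors changed when HER family signalling was stimulated or blocked.

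The libraries held 25832557 to 69434151 counts on genes. Levels are given as TMM-normalized counts per 1000000 (CPM), and levels of different genes are compared as TPM, which also divides by the merged exon length. The smallest level taken as detected, 3 counts, was 0.0432 CPM in the deepest and 0.116 CPM in the shallowest library, which takes in counting error alone. A gene was called when edgeR's quasi-likelihood test, adjusted over all genes tested in the cell line (Benjamini-Hochberg), gave an adjusted p below 0.05, and the log2 fold change (log2FC) is given ± its standard error (SE). In MKN1 cells 10 of the 10 genes had enough counts to be tested, in MKN7 and NCI-N87 cells 9 (not HGF) and in Hs746T cells 9 (not FGFR2). Same-numbered replicates of different treatments deviated together, so the adjusted p with the replicate number as a block is added where it changed a call. Reads from LETM2, on the opposite strand, overlap FGFR1 (LETM2 held 6.3% as many counts as FGFR1), and the antisense RNA AC105935.1 overlaps MST1R (1.07%). Whether the counting used the strand is not given in the sources used here, so for those genes reads of the partner may be included. TYRO3 has a pseudogene copy that can share reads with it.

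In these established lines the epithelial markers EPCAM and CDH1 were high in MKN7 (median over libraries 626 and 243 CPM) and NCI-N87 cells (496 and 256 CPM). In MKN1 cells they were at 25.1 and 2.0 CPM and in Hs746T cells at 35.5 and 0.785 CPM. The epithelial keratins KRT8, KRT18 and KRT19 had another order. Their medians were 11066, 2984 and 4166 CPM in MKN1 and 3083, 854 and 1142 CPM in MKN7 cells. NCI-N87 cells had 9662, 2796 and 4617 CPM and Hs746T cells 342, 150 and 26.4 CPM. Hs746T cells had the highest sum of 4 mesenchymal markers (median 3773 CPM, against 1188 CPM in MKN1 and less in the other lines) and of 3 fibroblast markers (691 CPM). Of the fibroblast markers, COL1A1 (523 CPM) and COL1A2 (164 CPM) were high there, while DCN was at 0.107 CPM. Of 3 endothelial markers, PECAM1 had a median of 155 CPM in Hs746T cells, while VWF (0.333 CPM) and CDH5 (0.0560 CPM) were low. The 6 gastric markers summed to a median of 3.80 to 12.2 CPM outside NCI-N87 cells, where MUC5AC alone had a median of 105 CPM. Of leukocyte markers, 3 genes summed to at most 9.29 CPM in any library.

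The region before the transcription start is shown for MET, MST1R, FGFR4 and FGFR2, which changed with afatinib in the same cells, as 250 bases from RefSeq (GRCh38.p14), 5′ to 3′ on the gene's strand. The window of MET is chr7:116671946-116672195 (plus strand), that of MST1R chr3:49903874-49904123 (minus strand), of FGFR4 chr5:177086665-177086914 (plus strand) and of FGFR2 chr10:121598445-121598694 (minus strand). The first 3 of these genes fell and FGFR2 rose in NCI-N87 cells given afatinib for 24 h.
MET: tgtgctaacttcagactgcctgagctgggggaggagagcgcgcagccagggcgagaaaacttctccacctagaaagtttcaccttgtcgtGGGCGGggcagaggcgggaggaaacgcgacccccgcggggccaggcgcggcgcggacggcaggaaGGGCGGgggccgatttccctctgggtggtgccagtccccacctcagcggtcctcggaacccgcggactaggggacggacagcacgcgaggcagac
MST1R: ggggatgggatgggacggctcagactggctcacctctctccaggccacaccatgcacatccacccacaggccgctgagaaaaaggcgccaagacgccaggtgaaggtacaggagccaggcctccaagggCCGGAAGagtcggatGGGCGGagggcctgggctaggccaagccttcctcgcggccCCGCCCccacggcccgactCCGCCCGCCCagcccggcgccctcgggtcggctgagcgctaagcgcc
FGFR4: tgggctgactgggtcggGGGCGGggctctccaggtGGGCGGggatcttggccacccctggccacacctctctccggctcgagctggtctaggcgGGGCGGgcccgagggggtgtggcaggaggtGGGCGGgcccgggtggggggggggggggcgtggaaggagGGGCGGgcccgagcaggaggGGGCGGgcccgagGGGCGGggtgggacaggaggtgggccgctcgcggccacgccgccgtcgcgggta
FGFR2: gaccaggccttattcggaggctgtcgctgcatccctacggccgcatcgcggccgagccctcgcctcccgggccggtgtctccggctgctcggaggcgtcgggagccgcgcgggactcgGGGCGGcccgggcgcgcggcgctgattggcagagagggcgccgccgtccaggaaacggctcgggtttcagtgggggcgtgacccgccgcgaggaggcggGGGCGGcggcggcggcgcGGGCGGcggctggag
Capitals mark matches, on either strand, to the GC box GGGCGG or the ETS motif CCGGAAG. The GC box had 2 matches in the window of MET, 4 in MST1R, 7 in FGFR4 and 3 in FGFR2, and it is found in 42.6% of 35116 such windows. The ETS motif had 1 match in MST1R, which does not overlap a GC box, and is found in 8.52% of windows. The AP-1 motif TGANTCA, the E-box CACGTG, the FOXO motif TGTTTAC and the E2F motif TTTCCCGC had 0 matches in these 4 windows. The window of TYRO3, which also fell in NCI-N87 cells and is not printed, had 1 match to the AP-1 motif, 220 bases before the start, and 3 to the GC box. The AP-1 motif is found in 6.57% of windows. Of the 10 genes, 9 had a window in the RefSeq table, and FGFR1 is named only.

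Untreated cells differed in which of the receptors they expressed. HGF (chr7:81699008-81770438, minus strand) was low throughout. It reached 1.67 CPM (1.15 to 2.44) in Hs746T cells (median and range over the 6 untreated libraries) and 0.589 CPM (0.441 to 0.752) in MKN1 cells, and it was at 0 counts in 5 of 6 untreated MKN7 and 2 of 6 untreated NCI-N87 libraries. MET (chr7:116672390-116798386, plus strand, GENCODE 29 on GRCh38) was by far the highest of the 10 genes per length in Hs746T cells, a line known for an amplified MET gene, at 2698 TPM (2439 to 3475). In NCI-N87 cells MET was also first, at 203 TPM (155 to 224). MKN7 cells had 107 TPM (88.6 to 112) and MKN1 cells 76.2 TPM (46.0 to 107) of MET. Each of the 6 pairs of lines differed in MET. The nearest pair, MKN1 and MKN7, differed by log2FC -0.55 ± 0.12 (adjusted p = 2.32e-05). This value averages unlike times: at 4 h MKN1 (185, 166 and 173 CPM) and MKN7 cells (198, 178 and 171 CPM) overlapped, and at 24 h MKN1 (71.4, 91.6 and 95.6 CPM) lay below MKN7 cells (192, 181 and 162 CPM). MST1R (chr3:49887002-49903873, minus strand), the receptor related to MET, had another order: 91.8 CPM (84.8 to 122) in MKN7, 75.7 CPM (64.2 to 96.0) in NCI-N87, 14.9 CPM (6.42 to 20.6) in Hs746T and 3.16 CPM (1.81 to 4.68) in MKN1 cells. MKN7 and NCI-N87 cells, the neighbours at the top, were not called different (log2FC 0.33 ± 0.25, adjusted p = 0.222, with the block 8.63e-06). In Hs746T cells MST1R depended on the replicate: the untreated libraries of replicate 1 had 6.42 and 7.43 CPM, and the other 4 lay between 14.7 and 20.6 CPM. Replicate 1 of Hs746T also stood apart upwards in MET, at 5679, 4171 and 4091 CPM in the 24 h libraries, and in TYRO3 (48.2, 30.1 and 33.8 CPM) and FGFR1 (207, 129.6 and 129.6 CPM).

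AXL (chr19:41219203-41261766, plus strand) was the most abundant of the TAM receptors in MKN7, Hs746T and MKN1 cells. It reached 1031 TPM (844 to 1366) in MKN7, 434 TPM (389.9 to 463) in Hs746T and 366 TPM (228 to 522) in MKN1 cells, and 4.33 TPM (2.25 to 5.52) in NCI-N87 cells. The NCI-N87 libraries thus lay far below those of the other lines, with log2FC -6.69 ± 0.22 against Hs746T cells. MKN1 and Hs746T cells were not called different in AXL (log2FC -0.18 ± 0.17, adjusted p = 0.313, with the block 0.0114). TYRO3 (chr15:41557675-41583586, plus strand) was highest in MKN1 cells at 81.0 CPM (74.0 to 88.6), followed by NCI-N87 (48.6 CPM (45.3 to 51.5)), Hs746T (33.8 CPM (30.1 to 48.2)) and MKN7 cells (20.3 CPM (18.2 to 21.4)). NCI-N87 and Hs746T cells, the nearest pair, differed in TYRO3 by log2FC 0.37 ± 0.11 (adjusted p = 0.00161), but without replicate 2 or 3 the adjusted p was 0.124 and 0.0847. MERTK (chr2:111898479-112029561, plus strand), the third TAM receptor, stayed between 1.37 and 6.73 CPM in every untreated library and was lowest in MKN7 cells.

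The lines differed in the make-up of their FGF receptors. FGFR1 made up 99.1% ± 0.382 (SD, n = 3) of the summed FGFR1 to FGFR4 TPM in Hs746T and 60.3% ± 1.16 in MKN7 cells after 24 h without treatment. FGFR4 (chr5:177086886-177098144, plus strand), a receptor that with β-klotho binds FGF19, made up 86.0% ± 0.772 in NCI-N87 cells. In MKN1 cells FGFR3 made up 55.3% ± 2.14 and FGFR1 26.5% ± 1.04 at 24 h. At 4 h FGFR3 (39.8% ± 4.15) and FGFR1 (38.6% ± 1.64) overlapped there, and neither was clearly first by TPM. These shares depend on the merged exon length, 13842 bases for FGFR1 and 4848 bases for FGFR3. In CPM, without that division, FGFR1 (54.5 to 97.0) lay above FGFR3 (29.7 to 48.1) in untreated MKN1 cells. FGFR1 (chr8:38400215-38468834, minus strand) was at 138 CPM (129.6 to 207) in Hs746T, 88.4 CPM (72.6 to 110.2) in MKN7 and 72.4 CPM (54.5 to 97.0) in MKN1 cells. In NCI-N87 cells it was low, at 0.594 CPM (0.271 to 1.45), with 13 to 72 counts per library. MKN1 and MKN7 cells were not called different in FGFR1 (adjusted p = 0.119, with the block 5.21e-08). FGFR2 (chr10:121478334-121598458, minus strand) was at 12.3 CPM (9.52 to 15.5) in NCI-N87, 3.69 CPM (2.94 to 4.77) in MKN7 and 2.14 CPM (1.27 to 2.55) in MKN1 cells. Untreated Hs746T libraries held 0 to 5 counts of it. FGFR3 (chr4:1793293-1808872, plus strand) was at 37.4 CPM (29.7 to 48.1) in MKN1 cells and below 4 CPM in the untreated libraries of the other lines. MKN7 and NCI-N87 cells, neighbours in FGFR3, differed by log2FC -0.02 ± 0.19, within the spread of the replicates. Of 60 tests over the 6 pairs of lines and the 10 genes, 53 were called. The share called among all genes in a pair of lines was 71.9% to 76.5%. In such bulk libraries fewer cells of a type and less RNA per cell cannot be told apart.

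**Figure D1:**
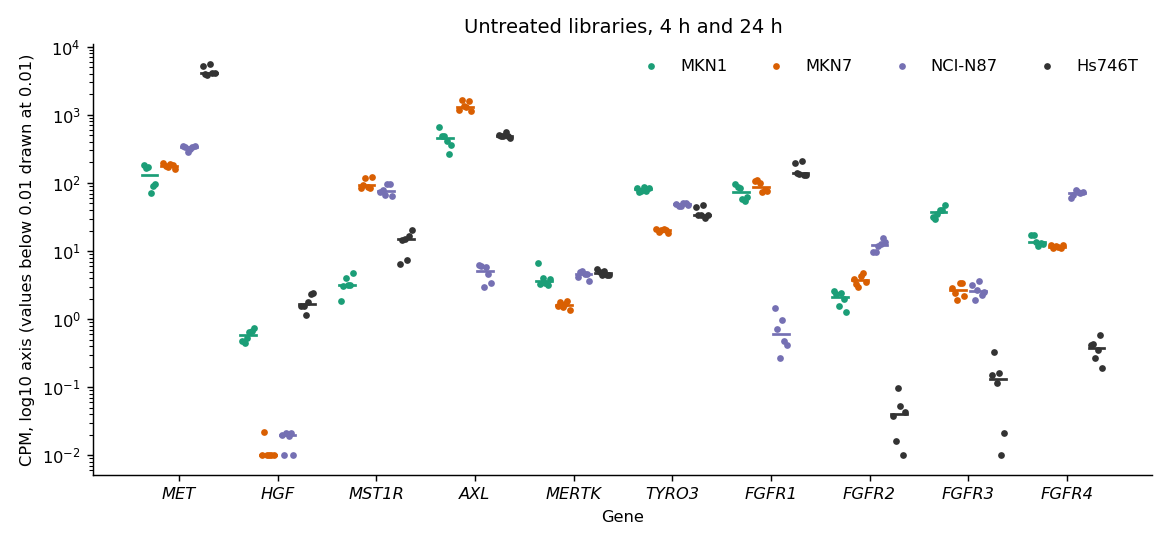
Level of the 10 genes in each untreated library (points, TMM-normalized CPM on a log10 axis, values below 0.01 drawn at 0.01) by cell line, with the median over 6 libraries as a line. MET in Hs746T cells lies between 3898 and 5679 CPM, while FGFR2 in the same libraries lies below 0.1 CPM.

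The level of untreated cells itself moved between 4 h and 24 h in MKN1 cells. There 5 of 10 genes were called, all lower at 24 h, against 34.1% of all genes tested. MET was at 185, 166 and 173 CPM at 4 h and 71.4, 91.6 and 95.6 CPM at 24 h (log2FC -1.04 ± 0.16, adjusted p = 4.63e-06). FGFR1 fell from 89.6 ± 6.96 CPM (SD, n = 3) to 58.0 ± 3.59 CPM (log2FC -0.65 ± 0.10, adjusted p = 3.05e-06), with no overlap between the groups in either gene. AXL (log2FC -0.67 ± 0.23, adjusted p = 0.0209), FGFR4 (log2FC -0.37 ± 0.13, adjusted p = 0.0273) and MERTK (log2FC -0.46 ± 0.17, adjusted p = 0.0345) were also lower. Each of these 3 calls was lost when some replicates were left out. For AXL, without replicate 2 or 3 the adjusted p was 0.152 and 0.0797. For FGFR4, without replicate 1 or 2 the adjusted p was 0.399 and 0.124, and for MERTK, without replicate 1 or 3 the adjusted p was 0.845 and 0.0623. The log2FC of MERTK was -0.07 without replicate 1, while that of AXL (-0.58 without replicate 2 and -0.75 without replicate 3) stayed near its value with all replicates. FGFR3 was at 31.7, 29.7 and 35.3 CPM at 4 h and at 39.5, 39.7 and 48.1 CPM at 24 h (adjusted p = 0.0731, with the block 3.64e-05), higher at 24 h with no overlap. In MKN7 cells FGFR1 was the only one of 9 genes called (16.4% of all genes), with 106, 110.2 and 99.2 CPM at 4 h and 72.6, 77.6 and 76.3 CPM at 24 h (log2FC -0.51 ± 0.09, adjusted p = 0.000905). In NCI-N87 cells 0 of 9 were called, with 1 at an unadjusted p below 0.05 and 0 with DESeq2 (all genes 0.267%). That gene was FGFR2, with log2FC 0.43 ± 0.12 (adjusted p = 0.142, with the block 0.0214). In Hs746T cells 0 of 9 were called, with 1 at an unadjusted p below 0.05 and 0 with DESeq2 (all genes 1.48%). Without replicate 1, 1 of them was called. Treatments were therefore compared within a time point.

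Afatinib lowered MET, MST1R, TYRO3 and FGFR4 and raised FGFR2 in NCI-N87 cells, and with MET as the exception it did the same in MKN7 cells after 24 h. After 24 h of afatinib, 6 of 9 genes were called in NCI-N87 cells, against 62.5% of all genes tested, and 6 of 9 in MKN7 cells, against 51.6% of all genes. In MKN1 cells 4 of 10 were called (25.6% of all genes). In Hs746T cells 0 of 9 were called (0% of all genes), with 1 at an unadjusted p below 0.05 and 0 with DESeq2. After 4 h, 4 of 9 were called in NCI-N87 (18.2% of all genes), 4 of 9 in MKN7 (22.2%) and 1 of 10 in MKN1 cells (3.68%). In Hs746T cells 0 of 9 were called after 4 h (0% of all genes), with 2 at an unadjusted p below 0.05 and 0 with DESeq2. At an absolute log2FC above 1, 4 of the genes in NCI-N87 and 1 in MKN7 cells were called after 24 h, and 0 in MKN1 cells. The 24 h counts at the first limit in NCI-N87 and MKN7 cells lie near the shares of all genes. The larger limit was passed by 29.6% of all genes in NCI-N87, 13.5% in MKN7 and 4.19% in MKN1 cells. Over the 9 genes the median log2FC in NCI-N87 cells was -0.45, beside 0.03 over all genes tested. This median lies at the value of FGFR1, which was low there and not called (SE 0.70). The log2FC of the 9 genes ran from -1.65 to 2.08, so the median describes no shared shift.

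**Figure D2:**
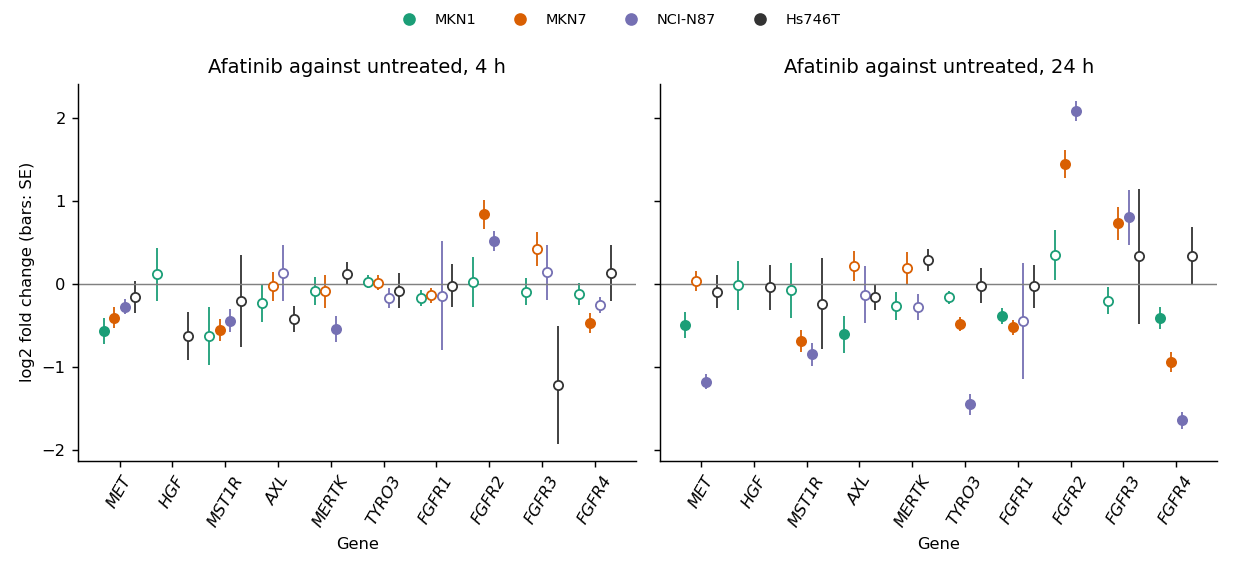
log2 fold change of each gene after afatinib against untreated cells of the same time point (points, bars are SE) in the 4 cell lines at 4 h (left) and 24 h (right). Filled points passed an adjusted p of 0.05, and FGFR2 in NCI-N87 cells reached 2.08 at 24 h.

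FGFR2, whose splice forms counts per gene do not tell apart, rose at both times in NCI-N87 and MKN7 cells. In NCI-N87 cells it was at 12.8, 15.5 and 13.4 CPM in untreated cells after 24 h and at 56.4, 64.5 and 58.6 CPM with afatinib. The lowest treated library was above the highest untreated one, and the difference was 4.22-fold (log2FC 2.08 ± 0.12, adjusted p = 4.22e-12). After 4 h it was at 9.84, 9.52 and 11.7 CPM without and 13.7, 13.4 and 17.4 CPM with afatinib (log2FC 0.52 ± 0.12, adjusted p = 0.00346), although without replicate 1 the adjusted p was 0.0687. The rise was larger at 24 h than at 4 h by log2FC 1.56 ± 0.17 (adjusted p = 3.54e-07). In MKN7 cells FGFR2 was at 4.29, 4.77 and 3.49 CPM untreated and at 12.2, 11.5 and 10.6 CPM with afatinib after 24 h. That was 2.71-fold higher (log2FC 1.44 ± 0.17, adjusted p = 7.34e-07), without overlap. After 4 h the MKN7 libraries had 3.89, 3.25 and 2.94 CPM and 6.13, 6.85 and 5.45 CPM (log2FC 0.84 ± 0.18, adjusted p = 0.00157). For this difference, without replicate 2 the adjusted p was 0.0558. The MKN7 rise was not called larger at 24 h than at 4 h (adjusted p = 0.0937, with the block 0.0125). In MKN1 cells FGFR2 was at 2.42, 1.97 and 1.27 CPM untreated and 3.35, 2.33 and 1.63 CPM treated, which overlapped (log2FC 0.35 ± 0.30, adjusted p = 0.433).

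FGFR4 moved the other way. After 24 h in NCI-N87 cells it was at 72.5, 71.7 and 73.8 CPM untreated and 22.4, 23.5 and 25.4 CPM with afatinib, 3.13-fold lower (log2FC -1.65 ± 0.10, adjusted p = 6.54e-12). The replicates of each group lay within a few CPM of each other. At 4 h the groups overlapped (59.2, 66.5 and 79.0 CPM against 55.8, 54.4 and 60.5 CPM, adjusted p = 0.0686, with the block 0.0102). The fall at 24 h exceeded that at 4 h by log2FC -1.39 ± 0.14 (adjusted p = 9.26e-08). In MKN7 cells FGFR4 fell from 11.5, 11.2 and 12.5 CPM to 6.24, 5.84 and 6.25 CPM after 24 h (log2FC -0.95 ± 0.12, adjusted p = 1.76e-06). It was already lower at 4 h (log2FC -0.47 ± 0.12, adjusted p = 0.00661), but without replicate 2 or 3 the adjusted p was 0.101 and 0.0754. In MKN1 cells it was at 11.8, 13.3 and 12.8 CPM untreated and 9.72, 10.1 and 8.96 CPM treated after 24 h (log2FC -0.42 ± 0.13, adjusted p = 0.0191). The MKN1 groups did not overlap, yet without replicate 1 or 2 the adjusted p was 0.112 and 0.0794. The 3 lines thus shared a lower FGFR4 with afatinib, and its size differed between the 4 lines (F test, adjusted p = 4.26e-09).

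The make-up of the FGF receptors shifted with these changes. In NCI-N87 cells FGFR2 was 10.5% ± 1.11 of the summed FGFR1 to FGFR4 TPM in untreated cells and 56.8% ± 2.61 with afatinib after 24 h (SD, n = 3). FGFR4 was 86.0% ± 0.772 and 35.5% ± 2.54 of that sum. The sum itself was 75.0 ± 1.88 TPM untreated and 69.7 ± 6.02 TPM treated. In MKN7 cells FGFR2 went from 6.10% ± 0.877 to 19.9% ± 1.95 and FGFR4 from 26.8% ± 1.84 to 16.6% ± 0.745. FGFR1 remained the first FGF receptor there, at 47.8% to 52.1% of the sum in the 3 treated libraries.

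**Figure D3:**
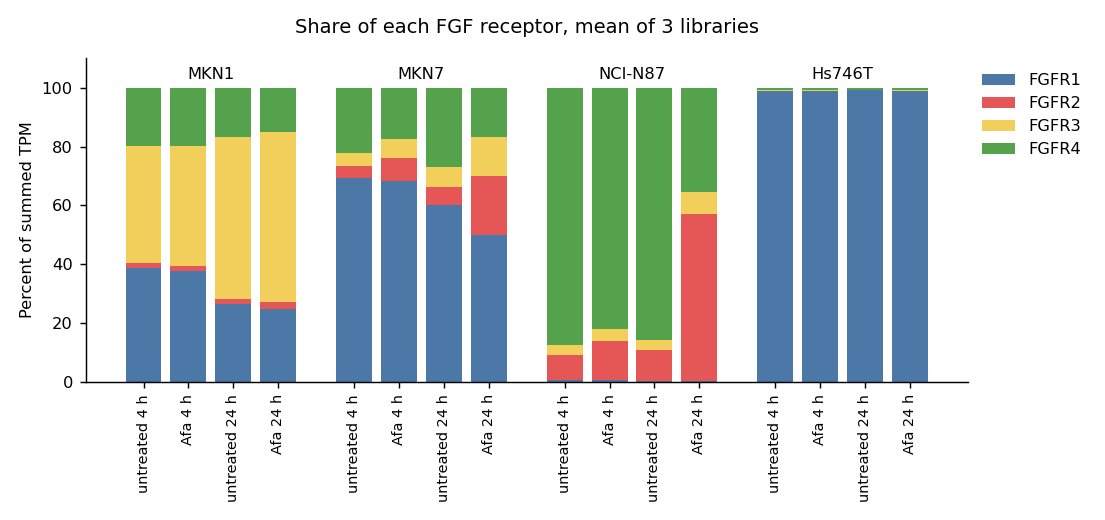
Share of FGFR1 to FGFR4 in their summed TPM (percent, mean of 3 libraries) in untreated and afatinib (Afa) treated cells at 4 h and 24 h by cell line. FGFR2 takes 56.8% in NCI-N87 cells after 24 h of afatinib, while FGFR1 takes nearly all of the bar in Hs746T cells.

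FGFR1 was lower after 24 h of afatinib in MKN7 cells, at 49.1, 52.5 and 56.4 CPM against 72.6, 77.6 and 76.3 CPM (log2FC -0.53 ± 0.09, adjusted p = 6.18e-05). MKN1 cells had 48.5, 46.1 and 40.4 CPM against 58.0, 54.5 and 61.6 CPM (log2FC -0.38 ± 0.10, adjusted p = 0.00328), but without replicate 3 the adjusted p was 0.149. Neither pair of groups overlapped. In NCI-N87 cells FGFR1 had at most 0.973 CPM in the untreated 24 h libraries and log2FC -0.45 ± 0.70. In MKN7 cells the fall was larger at 24 h than at 4 h by log2FC -0.39 ± 0.13 (adjusted p = 0.0389), although without replicate 1 or 2 the adjusted p was 0.179 and 0.210. FGFR3 was higher with afatinib after 24 h in MKN7 cells (4.67, 5.12 and 5.15 CPM against 3.35, 3.44 and 2.19 CPM, log2FC 0.73 ± 0.20, adjusted p = 0.00418). In NCI-N87 cells it was at 7.46, 4.23 and 3.34 CPM against 3.66, 2.27 and 2.52 CPM, and these groups overlapped (log2FC 0.80 ± 0.33, adjusted p = 0.0386). For FGFR3 in NCI-N87 cells, without replicate 2 or 3 the adjusted p was 0.117 and 0.0832. In MKN1 cells, the line with the highest FGFR3, it was at 34.2, 33.4 and 44.3 CPM treated and 39.5, 39.7 and 48.1 CPM untreated (adjusted p = 0.385, with the block 0.0132). The sum of the 5 epithelial markers was also lower with afatinib after 24 h, at 9520 to 11735 against 17752 to 20767 CPM in NCI-N87 and 4311 to 5115 against 5948 to 6994 CPM in MKN7 cells (range over 3 libraries). Among the other markers in NCI-N87 cells, the 6 gastric markers summed to 13.3 to 19.3 CPM with and 120.2 to 176 CPM without afatinib, and the 4 mesenchymal markers to 95.4 to 129.7 and 249 to 288 CPM. The 3 fibroblast markers there summed to 24.4 to 26.1 and 12.5 to 18.5 CPM. The epithelial sum was mostly keratins. Over all NCI-N87 libraries KRT8, KRT18 and KRT19 had medians of 9662, 2796 and 4617 CPM, beside 496 CPM for EPCAM and 256 CPM for CDH1. The gastric, mesenchymal and fibroblast sums were each mostly 1 gene. Over all NCI-N87 libraries MUC5AC had a median of 105 CPM beside 107 CPM for the gastric sum. FN1 had 237 CPM beside 250 CPM for the mesenchymal sum, and COL1A1 17.4 CPM beside 17.7 CPM for the fibroblast sum. The part of these markers in the results was not tested.

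MET fell in NCI-N87 cells from 319, 334 and 347 CPM to 146, 148 and 157 CPM after 24 h of afatinib, a 2.26-fold difference (log2FC -1.18 ± 0.09, adjusted p = 2.93e-10). After 4 h the difference was smaller, 349, 342 and 281 CPM against 272, 278 and 249 CPM (log2FC -0.28 ± 0.09, adjusted p = 0.0315). For that early difference, without replicate 1 or 2 the adjusted p was 0.228 and 0.196. The change between the times was log2FC -0.90 ± 0.13 (adjusted p = 1.07e-05). MKN7 cells showed the reverse order in time. MET was at 198, 178 and 171 CPM and 151, 146 and 127 CPM after 4 h (log2FC -0.41 ± 0.12, adjusted p = 0.0220) and at 192, 181 and 162 CPM and 200.2, 200.4 and 149 CPM after 24 h (log2FC 0.03 ± 0.12, adjusted p = 0.844). The MKN7 groups were apart at 4 h and overlapped at 24 h. The difference between the times was not called (adjusted p = 0.0881, with the block 0.000312), and for the call at 4 h, without replicate 1 or 2 the adjusted p was 0.133 and 0.129. In MKN1 cells MET was at 120.0, 122 and 115 CPM with afatinib and 185, 166 and 173 CPM without after 4 h (log2FC -0.57 ± 0.16, adjusted p = 0.0357). After 24 h it was at 84.2, 56.1 and 45.5 CPM and 71.4, 91.6 and 95.6 CPM (log2FC -0.50 ± 0.16, adjusted p = 0.0189), where replicate 1 was higher with afatinib and replicates 2 and 3 lower. For MET in MKN1 cells, at 4 h without replicate 1, 2 or 3 the adjusted p was 0.110, 0.228 and 0.141, and at 24 h without replicate 2 or 3 the adjusted p was 0.267 and 0.461. Hs746T cells, with the highest MET, had 5145, 4147 and 3772 CPM with and 5679, 4171 and 4091 CPM without afatinib (log2FC -0.10 ± 0.20, adjusted p = 1.000), which overlapped.

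MST1R was lower with afatinib in NCI-N87 and MKN7 cells. In NCI-N87 cells it was at 95.1, 96.0 and 64.2 CPM untreated and 46.4, 52.6 and 45.7 CPM treated after 24 h (log2FC -0.85 ± 0.14, adjusted p = 1.24e-05), and at 4 h it was also lower (log2FC -0.44 ± 0.13, adjusted p = 0.0244). For NCI-N87 cells at 4 h, without replicate 1 or 2 the adjusted p was 0.159 and 0.148. MKN7 cells had 88.7, 84.8 and 122 CPM and 63.0, 56.6 and 64.4 CPM after 24 h (log2FC -0.69 ± 0.13, adjusted p = 0.000174) and log2FC -0.56 ± 0.13 after 4 h (adjusted p = 0.00371). The groups were apart in each of these 4 comparisons. In MKN1 cells MST1R was at 1.81, 3.11 and 3.96 CPM and 1.39, 1.69 and 2.67 CPM after 4 h (adjusted p = 0.411, with the block 0.00286), lower with afatinib in each of the 3 replicates.

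Of the TAM receptors, TYRO3 was called in NCI-N87 and MKN7 cells after 24 h of afatinib. In NCI-N87 cells after 24 h it was at 50.3, 51.5 and 48.2 CPM untreated and 20.4, 16.8 and 18.9 CPM with afatinib, 2.74-fold lower (log2FC -1.45 ± 0.13, adjusted p = 2.12e-09). After 4 h it had not passed the test (49.0, 45.3 and 46.1 CPM against 45.9, 37.2 and 41.0 CPM, log2FC -0.17 ± 0.12, adjusted p = 0.394). The times differed by log2FC -1.28 ± 0.18 (adjusted p = 8.28e-06). MKN7 cells showed the same pattern at a lower level. TYRO3 was at 21.4, 20.3 and 18.2 CPM and 13.5, 13.5 and 15.9 CPM after 24 h (log2FC -0.49 ± 0.09, adjusted p = 0.000106). The MKN7 times differed by log2FC -0.50 ± 0.12 (adjusted p = 0.00759), although without replicate 1 or 2 the adjusted p was 0.109 and 0.0960. In MKN1 cells TYRO3 was at 88.6, 76.9 and 85.0 CPM and 80.1, 77.1 and 69.2 CPM (adjusted p = 0.125, with the block 0.00501). AXL was called in MKN1 cells only, with 416, 270.2 and 364 CPM untreated and 306, 202 and 188 CPM treated after 24 h (log2FC -0.61 ± 0.23, adjusted p = 0.0439). Those groups overlapped, and without replicate 2 or 3 the adjusted p was 0.103 and 0.463. In MKN7 cells, which had the highest AXL, it was at 1292, 1624 and 1126 CPM and 1494, 1830 and 1368 CPM, higher with afatinib in each of the 3 replicates by an amount below the spread between them (adjusted p = 0.348, with the block 0.0135). The AXL effect was not called different between the 4 lines at 24 h (adjusted p = 0.215, with the block 1.41e-05). MERTK was lower in NCI-N87 cells after 4 h (log2FC -0.55 ± 0.16, adjusted p = 0.0181), but without replicate 2 or 3 the adjusted p was 0.196 and 0.102, and after 24 h it did not pass (log2FC -0.28 ± 0.16).

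**Figure D4:**
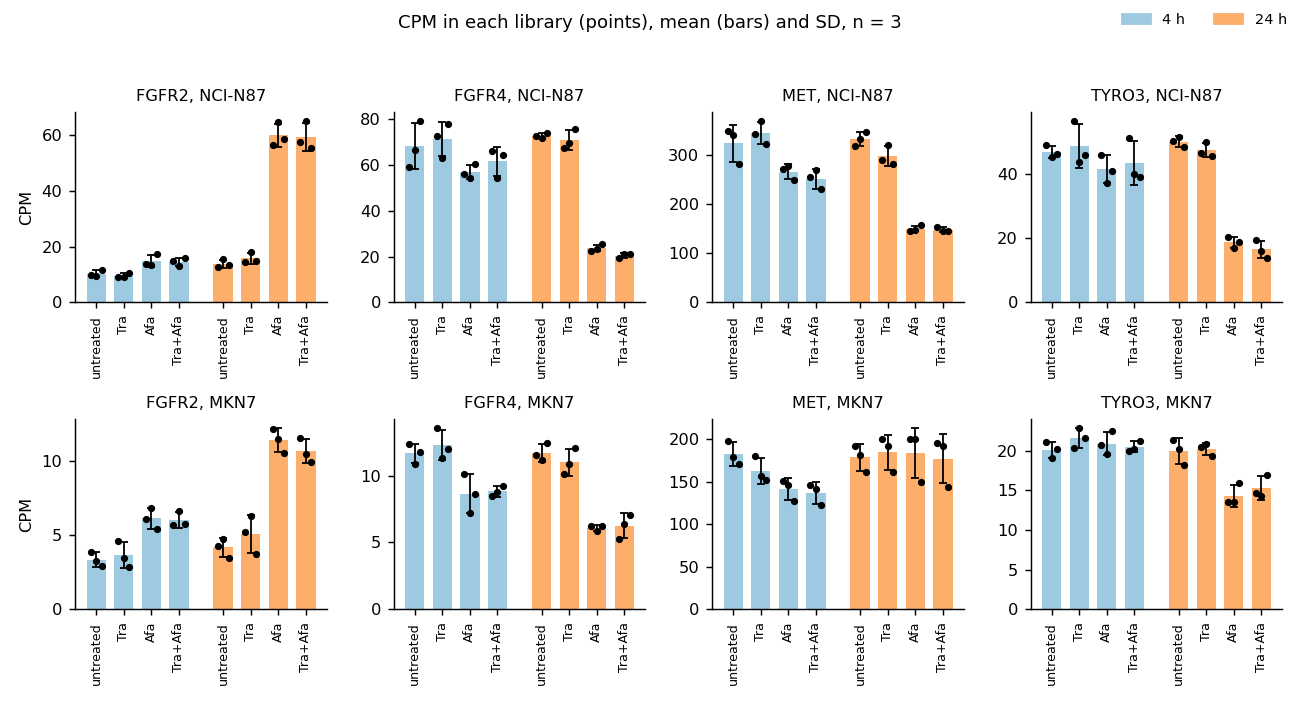
CPM of FGFR2, FGFR4, MET and TYRO3 in NCI-N87 (top) and MKN7 cells (bottom) by treatment and time, with each library as a point, the mean of 3 as a bar and the SD as an error bar. The afatinib (Afa) and trastuzumab + afatinib (Tra+Afa) bars lie together and apart from untreated and trastuzumab (Tra) cells at 24 h, except for MET in MKN7 cells.

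Whether the effect of afatinib differed between the 4 cell lines was tested with 1 F test per gene and time. At 24 h, 5 of 10 genes were called (40.7% of all genes tested). The adjusted p was 4.26e-09 for FGFR4, 1.86e-07 for TYRO3, 6.10e-05 for MET, 0.00128 for FGFR2 and 0.0382 for FGFR3. For FGFR2, without replicate 2 the adjusted p was 0.0978, and for FGFR3, without replicate 2 or 3 the adjusted p was 0.243 and 0.0736. With the block, MST1R (1.98e-05), FGFR1 (8.59e-05), AXL (1.41e-05) and MERTK (0.00883) also passed at 24 h. At 4 h, 0 of 10 were called (7.47% of all genes), with 1 at an unadjusted p below 0.05 and 0 with DESeq2. With the block, AXL (0.00863), FGFR3 (0.0145), MERTK (0.0167) and FGFR2 (0.0327) passed at 4 h. Within single lines, the afatinib effect differed between 24 h and 4 h for 4 of 9 genes in NCI-N87 (35.8% of all genes) and 2 of 9 in MKN7 cells (18%), all given above. Without replicate 1 or 2 the count in MKN7 cells was 0. In MKN1 cells 0 of 10 were called (2.77%), with 0 at an unadjusted p below 0.05 and 0 with DESeq2, and in Hs746T cells 0 of 9 (0%), also with 0 and 0. The block added MST1R (0.00351) and FGFR3 (0.0195) in NCI-N87 and FGFR4 (0.0184) in MKN7 cells to those named.

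Trastuzumab alone left the genes without a call. Of 74 tests over the 4 lines and both times, 0 passed in edgeR, 0 had an unadjusted p below 0.05 and 0 passed in DESeq2, beside 0% of all genes tested in each of the 8 comparisons. The log2FC lay between -0.59 and 0.56. In NCI-N87 cells after 24 h of trastuzumab, FGFR2 was at 14.6, 18.1 and 14.8 CPM, close to the 12.8 to 15.5 CPM of untreated cells. Afatinib added to trastuzumab gave values near those of afatinib alone. Trastuzumab + afatinib was compared with the same untreated libraries as afatinib, so both sets of values share their controls. In NCI-N87 cells after 24 h, 7 of 9 genes were called (64.7% of all genes). The log2FC was 2.06 ± 0.12 for FGFR2, -1.86 ± 0.10 for FGFR4, -1.63 ± 0.13 for TYRO3 and -1.20 ± 0.09 for MET. MERTK, not called with afatinib alone, passed with the combination (log2FC -0.54 ± 0.16, adjusted p = 0.00554), but without replicate 2 the adjusted p was 0.0754. In MKN7 cells after 24 h the same 6 genes as with afatinib alone were called (51.9% of all genes), with FGFR2 at log2FC 1.34 ± 0.17 and FGFR4 at -0.91 ± 0.12. MKN1 cells after 24 h had 3 of 10 called (26.8%). These were FGFR4 (log2FC -0.54 ± 0.13, adjusted p = 0.00253), FGFR1 (log2FC -0.37 ± 0.10, adjusted p = 0.00425) and TYRO3 (log2FC -0.20 ± 0.08, adjusted p = 0.0493). FGFR4 kept its call without any one replicate. For FGFR1, without replicate 3 the adjusted p was 0.136, and for TYRO3, without replicate 2 or 3 the adjusted p was 0.140 and 0.461. MET (adjusted p = 0.0573, with the block 0.0166), AXL (0.106 and 0.000177) and FGFR3 (0.294 and 0.00368) passed only with the block. In the same way FGFR1 in NCI-N87 cells (0.350 and 0.0172) and AXL in MKN7 cells (0.421 and 0.0313) passed with the block alone.

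After 4 h of trastuzumab + afatinib, 3 of 9 genes were called in NCI-N87 (17.3% of all genes), 4 of 9 in MKN7 (23.4%) and 1 of 10 in MKN1 cells (3.95%). Those of NCI-N87 cells were MET (log2FC -0.36 ± 0.09), MST1R (-0.54 ± 0.14) and FGFR2 (0.49 ± 0.12). Each lost its call without at least 1 replicate: for MET, without replicate 1 or 2 the adjusted p was 0.115 and 0.0619, for MST1R, without replicate 1 or 2 the adjusted p was 0.0936 and 0.0801, and for FGFR2, without replicate 1 the adjusted p was 0.135. In MKN7 cells FGFR2 (log2FC 0.82 ± 0.18) was higher and MST1R (-0.55 ± 0.13), MET (-0.44 ± 0.12) and FGFR4 (-0.43 ± 0.12) were lower. MST1R kept its call without any one replicate. For FGFR2 without replicate 2 the adjusted p was 0.0515, for MET without replicate 1 or 2 the adjusted p was 0.0911 and 0.104, and for FGFR4 without replicate 1, 2 or 3 the adjusted p was 0.0871, 0.0573 and 0.0727. The gene called in MKN1 cells was MET (log2FC -0.54 ± 0.16, adjusted p = 0.0423), and without replicate 1, 2 or 3 the adjusted p was 0.124, 0.185 and 0.204. With the block, MERTK in NCI-N87 cells (0.0209) and MST1R (0.000122), MERTK (0.0437) and FGFR1 (0.0466) in MKN1 cells were called too, each lower.

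Against trastuzumab alone, a comparison with other controls, trastuzumab + afatinib for 24 h gave 7 of 9 calls in NCI-N87 (61.8% of all genes), 5 of 9 in MKN7 (44.4%) and 3 of 10 in MKN1 cells (27.9%). FGFR2 was higher by log2FC 1.88 ± 0.12 in NCI-N87 and 1.05 ± 0.17 in MKN7 cells. FGFR4 was lower by log2FC -1.82 ± 0.10, -0.83 ± 0.12 and -0.62 ± 0.13 in NCI-N87, MKN7 and MKN1 cells. These 5 differences held without any one replicate. Other calls were lost. In NCI-N87 cells MERTK had an adjusted p of 0.0724, 0.169 and 0.132 without replicate 1, 2 or 3. FGFR3 there had 0.0573 and 0.102 without replicate 2 or 3. FGFR1 had 0.0616 in MKN7 cells without replicate 2 and 0.0783 in MKN1 cells without replicate 3. TYRO3 in MKN1 cells had 0.109 and 0.315 without replicate 2 or 3. After 4 h the counts were 3 of 9 (19.7%), 3 of 9 (20.5%) and 0 of 10 (3.08%) in the same order of lines, and the last had 2 at an unadjusted p below 0.05 and 1 with DESeq2. In MKN7 cells the calls were MST1R, FGFR4 and FGFR2. MST1R had an adjusted p of 0.157 and 0.0809 without replicate 1 or 2. FGFR4 had 0.0904 without replicate 1 and FGFR2 0.109 without replicate 2. In NCI-N87 cells MST1R, MET and FGFR2 were called, and FGFR2 had 0.0507 without replicate 1. With the block, MET (0.0228), MERTK (0.00267) and MST1R (0.00355) passed in MKN1 cells at 4 h, MET (0.00171) in MKN7 cells, and FGFR4 (0.0320) and AXL (0.00507) in NCI-N87 cells. At 24 h it added FGFR1 (0.00680) and AXL (0.00547) in NCI-N87 cells. All of these were lower with afatinib. In Hs746T cells 0 of 9 genes were called with trastuzumab + afatinib against untreated cells at either time (0% and 0% of all genes), with 1 at an unadjusted p below 0.05 at each time and 0 with DESeq2. Against trastuzumab alone it was also 0 of 9 at both times, with 1 at an unadjusted p below 0.05 at 4 h, 0 at 24 h and 0 with DESeq2.

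EGF raised MET, AXL, FGFR1 and FGFR4 in MKN1 cells after 24 h and lowered FGFR3 and HGF. These were 6 of 10 genes, against 35.8% of all genes tested. MET was at 71.4, 91.6 and 95.6 CPM untreated and 195, 191 and 192 CPM with EGF, 2.26-fold higher (log2FC 1.18 ± 0.16, adjusted p = 6.74e-07). With EGF the 24 h libraries thus lay slightly above the untreated libraries of 4 h in MET. Untreated FGFR1 (log2FC -0.65), AXL (-0.67) and FGFR4 (-0.37) were also lower at 24 h than at 4 h. Their rise with EGF is against that lower level. FGFR1 was at 92.0, 84.4 and 79.9 CPM with EGF, above the 54.5 to 61.6 CPM of untreated cells (log2FC 0.58 ± 0.10, adjusted p = 1.75e-05). FGFR4 was at 20.3, 21.8 and 17.5 CPM (log2FC 0.67 ± 0.13, adjusted p = 0.000139), also above each untreated library. FGFR3, which had the highest share of the FGF receptors by TPM, but not by CPM, in untreated MKN1 cells at 24 h, went the other way. It was at 23.6, 19.5 and 31.5 CPM against 39.5, 39.7 and 48.1 CPM (log2FC -0.75 ± 0.16, adjusted p = 0.000493). Its share of the summed FGFR1 to FGFR4 TPM was 55.3% ± 2.14 untreated and 32.6% ± 6.91 with EGF (SD, n = 3). AXL (598, 434 and 503 CPM, log2FC 0.57 ± 0.23, adjusted p = 0.0482) and HGF (0.228, 0.361 and 0.500 CPM against 0.649, 0.663 and 0.752 CPM, log2FC -0.89 ± 0.32, adjusted p = 0.0305) passed by a small margin. For AXL, without replicate 2 or 3 the adjusted p was 0.206 and 0.148, and for HGF, without replicate 1, 2 or 3 the adjusted p was 0.180, 0.0953 and 0.0548. MERTK passed only with the block (0.0270). In the same libraries the sum of the 4 mesenchymal markers was 1457 to 2038 CPM with EGF and 742 to 1025 CPM untreated, and its part in these results was not tested. After 4 h of EGF 0 of 10 genes were called (6.82% of all genes), with 2 at an unadjusted p below 0.05 and 1 with DESeq2. MET was at 246, 248 and 224 CPM with and 185, 166 and 173 CPM without EGF, apart from each other (adjusted p = 0.0734, with the block 0.0197). FGFR1 had an adjusted p of 0.108, with the block 0.00152.

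In Hs746T cells EGF left 0 of 9 genes called at 4 h (0% of all genes) and at 24 h (0%), with 0 at an unadjusted p below 0.05 and 0 with DESeq2. The EGF effect on MET after 24 h was larger in MKN1 than in Hs746T cells by log2FC 1.12 ± 0.24 (adjusted p = 0.000630), but without replicate 2 the adjusted p was 0.0691. MET was the 1 gene of 10 called in that comparison (7.93% of all genes). The block added FGFR1 (5.80e-06) and AXL (0.00298). At 4 h 0 of 10 were called (0.92%), with 1 at an unadjusted p below 0.05 and 0 with DESeq2, and MET (0.0244), FGFR1 (0.0274) and AXL (0.0295) passed with the block.

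Cetuximab lowered MET and FGFR1 in MKN1 cells after 24 h, 2 of 10 genes against 10.8% of all genes. MET was at 61.8, 70.7 and 53.7 CPM with cetuximab (log2FC -0.49 ± 0.16, adjusted p = 0.0397) and FGFR1 at 48.9, 46.9 and 42.2 CPM (log2FC -0.35 ± 0.10, adjusted p = 0.0150), both below each untreated library. For MET, without replicate 2 or 3 the adjusted p was 0.168 and 0.373, and for FGFR1, without replicate 2 or 3 the adjusted p was 0.0895 and 0.259. With the block, FGFR4 (0.00206), AXL (0.0116) and, in the other direction, FGFR2 (0.0280) passed as well. After 4 h 0 of 10 were called (1.43% of all genes), with 1 at an unadjusted p below 0.05 and 0 with DESeq2. MET was then at 143, 123 and 113 CPM, below each of the untreated libraries (adjusted p = 0.154, with the block 0.0343). MST1R passed with the block too (0.00991). Cetuximab added to EGF left MET at 149, 139 and 145 CPM after 24 h, between the libraries with EGF and those left untreated. Against EGF alone 0 of 10 genes were called at 24 h (0.646% of all genes), with 3 at an unadjusted p below 0.05 and 0 with DESeq2. FGFR3 had log2FC 0.38 ± 0.16 (adjusted p = 0.409, with the block 0.000426) and FGFR1 -0.23 ± 0.10 (0.372 and 0.0140). Without replicate 3, 1 gene was called. At 4 h 0 of 10 were called (0.701%), with 1 at an unadjusted p below 0.05 and 0 with DESeq2. Against untreated cells, EGF + cetuximab raised MET (log2FC 0.75 ± 0.16, adjusted p = 0.00105), FGFR4 (log2FC 0.49 ± 0.13, adjusted p = 0.00767) and FGFR1 (log2FC 0.35 ± 0.10, adjusted p = 0.0106) after 24 h, 3 of 10 genes beside 18.6% of all genes. For FGFR4, without replicate 1 the adjusted p was 0.347, and for FGFR1, without replicate 1 or 2 the adjusted p was 0.178 and 0.115. FGFR3 (6.70e-05), AXL (0.00317) and HGF (0.0250) passed with the block. Against untreated cells at 4 h, EGF + cetuximab left 0 of 10 called (0.717% of all genes), with 1 at an unadjusted p below 0.05 and 0 with DESeq2. In Hs746T cells cetuximab, with or without EGF, left 0 of 9 genes called at either time, with 0 at an unadjusted p below 0.05 and 0 with DESeq2 (0% of all genes).

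**Figure D5:**
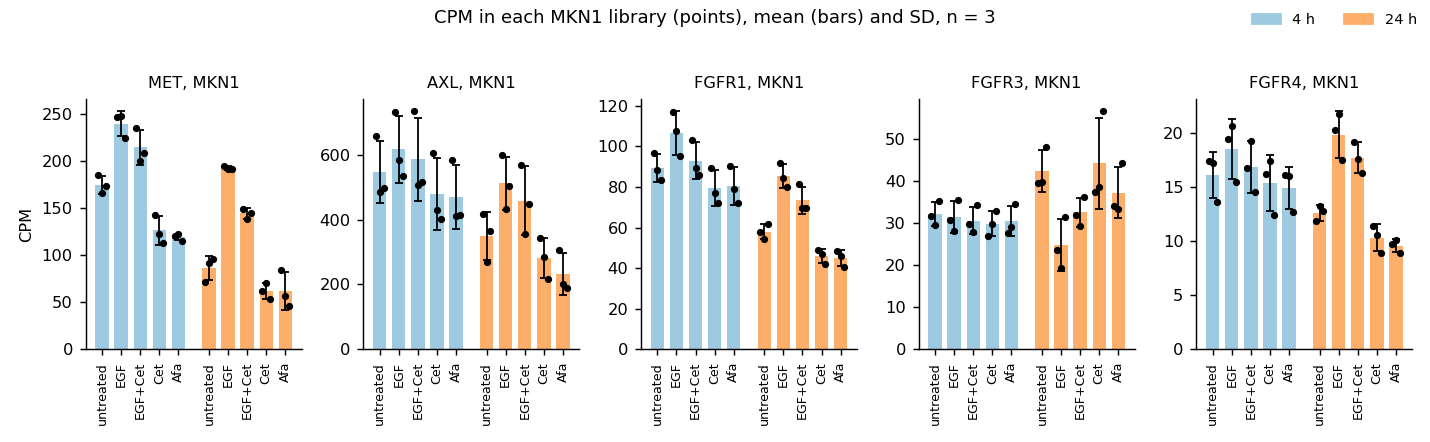
CPM of MET, AXL, FGFR1, FGFR3 and FGFR4 in MKN1 cells by treatment and time (Cet is cetuximab, Afa is afatinib), with each library as a point, the mean of 3 as a bar and the SD as an error bar. At 24 h the 3 EGF libraries of MET lie between 191 and 195 CPM and those of untreated cells between 71.4 and 95.6 CPM, while FGFR3 is lowest with EGF.

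The ligands of these receptors were looked at as a list of 21 genes, GAS6, PROS1, MST1 and 18 FGF genes. In MKN7 cells after 24 h of afatinib 5 of 7 tested ligands were called, all higher, against 51.6% of all genes called in either direction, and their median log2FC was 0.80 beside 0.04 over all genes. GAS6 (log2FC 0.69 ± 0.11, adjusted p = 1.64e-05) and PROS1 (log2FC 0.89 ± 0.10, adjusted p = 2.83e-07), the ligands of the TAM receptors, rose. MST1, which encodes the ligand of MST1R, rose too (log2FC 0.94 ± 0.12, adjusted p = 1.87e-06), as did FGF18 (log2FC 0.95 ± 0.29, adjusted p = 0.00895). In NCI-N87 cells 9 of 15 were called, 5 higher and 4 lower, a share near the 62.5% of all genes. There MST1 (log2FC 1.76 ± 0.24, adjusted p = 1.27e-06), GAS6 (log2FC 1.56 ± 0.14, adjusted p = 5.02e-09) and PROS1 (log2FC 1.08 ± 0.31, adjusted p = 0.00425) were also higher, while FGF8 fell (log2FC -2.24 ± 0.25, adjusted p = 1.12e-07). Levels in NCI-N87 cells were low, with medians over libraries of 1.72 CPM for MST1, 5.13 for GAS6, 5.50 for PROS1 and 0.976 for FGF8. Thus ligand mRNA of MST1R and of the TAM receptors was higher in the same libraries in which MST1R and TYRO3 were lower. AXL, the most abundant TAM receptor in MKN7 cells, was not lower there: it was not called, and it was higher with afatinib in each replicate. In MKN1 cells 1 of 13 ligands was called with afatinib (25.6% of all genes), PROS1 (log2FC 0.61 ± 0.10, adjusted p = 2.62e-05), and with EGF 2 of 13 (35.8% of all genes), both lower, among them GAS6 (log2FC -0.67 ± 0.25, adjusted p = 0.0319).

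Of the 5 genes for proteases and inhibitors that control the activation of HGF and MSP, SPINT1, an inhibitor of these proteases, was higher with afatinib after 24 h in NCI-N87 (log2FC 0.48 ± 0.10, adjusted p = 0.000297) and MKN1 cells (log2FC 0.55 ± 0.12, adjusted p = 0.000995). The counts were 2 of 4 in NCI-N87 (62.5% of all genes), 1 of 5 in MKN1 (25.6%) and 0 of 4 in MKN7 cells (51.6%), each at or below the share of all genes. Among the klotho co-receptors and the FGF receptor without a kinase domain (3 genes), FGFRL1 was lower with afatinib in MKN7 (log2FC -0.70 ± 0.12, adjusted p = 7.07e-05) and MKN1 cells (log2FC -0.34 ± 0.12, adjusted p = 0.0266) and higher with EGF in MKN1 cells (log2FC 0.48 ± 0.12, adjusted p = 0.00145), and KL was higher with afatinib in MKN7 cells (log2FC 1.35 ± 0.25, adjusted p = 0.000106). Of these 3 genes, 0 were called in NCI-N87 cells. Of 14 adaptors and signal carriers downstream of the receptors, 11 were called in NCI-N87 (3 higher, 8 lower), 8 in MKN7 (3 higher, 5 lower) and 5 in MKN1 cells (3 higher, 2 lower) after 24 h of afatinib, beside the shares of all genes just given. GAB1 and GAB2, docking proteins used by MET and the FGF receptors, were higher in all 3 lines. GAB2 had log2FC 1.00 in NCI-N87, 0.92 in MKN7 and 0.33 in MKN1 cells, and it fell with EGF in MKN1 cells (log2FC -0.49 ± 0.10, adjusted p = 0.000267).

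Over the 44 conditions, with the mean of each line removed, some of the genes followed each other. MET correlated with AXL (Pearson's r = 0.89), MERTK (0.80) and FGFR1 (0.74), and TYRO3 with FGFR4 (0.80). FGFR3 ran against FGFR1 (r = -0.65). The points share libraries, treatments and depth within a line, so these values are descriptions. Among 15747 other genes tested in all 4 lines, those most like MET included MAD1L1 (r = 0.96) and CHST15 (0.96). CHST15 was also among the 3 most like AXL and MERTK. Those most like TYRO3 were WDR76 (0.98), NCAPD3 (0.98) and TIMELESS (0.97). SPRY1 (0.88) came first for MST1R, EIF5 (0.96) for FGFR1, UBA2 (0.94) for FGFR4 and RFTN2 (0.82) for FGFR3. HGF and FGFR2 were not tested in all lines and were left out of this measure.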

How the data were processed

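mRNA was enriched on oligo-dT beads, directional libraries were made with the NEBNext Ultra II kit, and paired ends were sequenced. Per the labels, the authors deposited whole-number read counts per Ensembl gene, one file per library, without normalization. The submitters' processing notes name Trim Galore, STAR and hg38. Their versions, the counting tool, its annotation and its use of strand are not given in the sources used here, so overlapping genes may share reads. Library totals were 25832557 to 69434151 counts (median 50725776). Same-group libraries differed by at least 7.07 times Poisson variance over 132 pairs, and 0 pairs were identical. Gene names and exon lengths came from GENCODE 29, which lacked 8404 identifiers holding 0.0422% of counts.

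Counts of each cell line were fitted in edgeR (version 4.0.16, R 4.3.3) with 1 mean per treatment and time, TMM scaling and filterByExpr (minimum count 10, minimum total 15), and compared by the quasi-likelihood test with Benjamini-Hochberg adjustment. Cell lines were compared in 1 fit over the 132 libraries, and the scripts were tested on simulated data. The members are fixed names, and the gene lists name at most 4 called genes per comparison, those with the largest fold change above 1 CPM. The member genes and lists were chosen with earlier results of these data known. Biological triplicates are named in the series' design, but nothing says whether treatments of a number were plated together. Same-numbered libraries deviated together (every pair r above 0.1) in 51 of 52 comparisons, with a median r of 0.34. The exception was MKN1 trastuzumab + afatinib against trastuzumab at 24 h, for which no blocked value is given. The replicate number was therefore also fitted as a block, which pairs the samples. The calls, counts and SE are those of the fit without the block, which ignores this pairing, unless the block is named. Alternatives were DESeq2 (version 1.42.0), library size alone as scaling, no filter, 10 counts in every library, the replicate block, the compared groups alone and leaving out each replicate. A gene of the likeness measure is not reported here.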

Additional observations from a re-analysis of the deposited data

Results flagged for a closer look

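A difference of the afatinib effect between 24 h and 4 h passed its own test in 6 of 37 tests, with TYRO3 passing in both NCI-N87 and MKN7 cells. Among all genes the share called was 35.8% in NCI-N87, 18% in MKN7, 2.77% in MKN1 and 0% in Hs746T cells. In NCI-N87 cells the effect at 24 h minus that at 4 h was log2FC -1.39 for FGFR4, -1.28 for TYRO3, -0.90 for MET and 1.56 for FGFR2. In MKN7 cells it was -0.50 for TYRO3 and -0.39 for FGFR1. Both MKN7 calls were lost without replicate 1 (adjusted p = 0.109 for TYRO3 and 0.179 for FGFR1) and without replicate 2 (0.0960 and 0.210).

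A difference of the afatinib effect between the 4 cell lines at 24 h passed the F test for FGFR4 (adjusted p = 4.26e-09), TYRO3 (1.86e-07), MET (6.10e-05), FGFR2 (0.00128) and FGFR3 (0.0382). The share called among all genes was 40.7%. The FGFR2 call was lost without replicate 2 (adjusted p = 0.0978) and that of FGFR3 without replicate 2 or 3 (0.243 and 0.0736). The effect of EGF on MET at 24 h was larger in MKN1 than in Hs746T cells by log2FC 1.12, but without replicate 2 the adjusted p was 0.0691. Among all genes 7.93% were called in that comparison.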

How the results depend on the processing

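Of 152 calls of the 10 genes, 101 held under every alternative run, 51 were lost under at least 1 and 0 changed direction. Calls were lost most often without replicate 2 (41 of 152), then without replicate 3 (26) or 1 (23), with library size alone (19), with no filter (10), with the compared groups alone (10 of 93), with 10 counts in every library (3 of 122) and with DESeq2 (1). The replicate block lost 0 and raised the number of calls. It gave 7 instead of 2 for cetuximab, 2 instead of 0 for EGF + cetuximab against EGF, 6 instead of 3 for EGF + cetuximab against untreated cells, 11 instead of 6 for afatinib at 24 h minus 4 h, 13 instead of 5 for afatinib between the 4 lines and 6 instead of 1 for EGF in MKN1 against Hs746T cells. Leaving out 1 replicate gave 14 to 19 calls for afatinib (25 with all), 15 to 20 for trastuzumab + afatinib against untreated cells (24), 0 to 2 for cetuximab, 0 to 1 for EGF + cetuximab against EGF, 1 to 4 for EGF + cetuximab against untreated cells, 3 to 6 for afatinib between the 4 lines and 0 to 1 for EGF in MKN1 against Hs746T cells. Of these, afatinib (14), trastuzumab + afatinib (15), afatinib between the lines (3) and EGF between the lines (0) were lowest without replicate 2. Cetuximab was at 0 without replicate 2 and without replicate 3, and EGF + cetuximab against untreated cells was at 1 without replicate 1. Cetuximab gave 1 call with library size alone, with no filter and with the compared groups alone. With 10 counts in every library, in which only genes above that level in each line were tested, 25 of 30 line differences and 2 afatinib differences between lines were called. Library size alone moved the median log2FC of all genes to 0.29 for 24 h of afatinib in NCI-N87, 0.16 in MKN7, 0.34 for trastuzumab + afatinib in NCI-N87 and -0.24 for EGF in MKN1 cells. Fewer libraries leave fewer degrees of freedom, and other causes of lost calls were not tested. HGF in MKN7 and NCI-N87 cells and FGFR2 in Hs746T cells had too few counts to be tested.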

Other observations

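Genes that ERK signalling induces as its own feedback fell with afatinib in the lines in which the receptors changed. Of the 9 genes listed, 8 of 8 tested were lower after 24 h in NCI-N87, 7 of 8 in MKN7 and 7 of 8 in MKN1 cells (62.5%, 51.6% and 25.6% of all genes were called in either direction), and 0 of 9 were called in Hs746T cells, where 0% of all genes were. SPRY4, an inhibitor of receptor signalling that FGF receptors also induce, had log2FC -6.05 in NCI-N87, -5.07 in MKN7 and -4.50 in MKN1 cells. DUSP6, a phosphatase of ERK, had log2FC -5.46, -4.12 and -4.31 in the same order.

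Other receptor tyrosine kinases, 49 genes listed, moved in both directions after 24 h of afatinib, and their counts are to be read beside 62.5% of all genes called in NCI-N87, 51.6% in MKN7 and 25.6% in MKN1 cells. In NCI-N87 cells 11 of 38 tested were higher and 8 lower. In MKN7 cells 15 of 40 tested were higher and 10 lower. In MKN1 cells 6 of 44 tested were higher and 7 lower. EPHA2, a receptor for ephrins, fell with log2FC -2.74 in NCI-N87 and -1.73 in MKN1 cells.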
